A study of Mus musculus with 4 samples.

Results

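Some Sp9 peaks lie at 2 promoters at the same time, because the start sites of 2 neighbouring genes are close together. These shared-promoter peaks were selected on the distances in the deposited lists: a peak was kept when it was assigned to 2 or more different gene names, each with its transcription start site (TSS) at most 1000 bp away. The rule kept 138 of 5847 peaks at embryonic day 13.5 (E13.5) and 263 of 6022 at embryonic day 16.5 (E16.5), or 401 of 11869 over both lists. The tissue was basal ganglia of CD1 mouse embryos, described as wild type in the series' design text, and each stage had 1 library of chromatin immunoprecipitated with a rabbit antibody to Sp9 (ChIP-seq). The peaks were called against 1 input library per stage, made without antibody. Neither list gives a height, width, read total or chromosome position, so depth was unknown. Distances are from the mm9 build, and the sources used here do not say from which point of a peak they are measured. A single library per stage leaves no replicate check, so no test was made. The 95% intervals cover counting error only, and peaks and genes are not independent replicates.

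Many mammalian genes stand head to head, on opposite strands with their start sites a short distance apart, and the DNA between them serves as a bidirectional promoter. Such promoters are usually rich in CpG, often lack a TATA box and are common among genes for basic cell functions, such as mitochondrial proteins and DNA repair. Sp9 is a zinc finger factor of the SP/KLF family, whose members bind GC-rich boxes in DNA, and it is made in the ganglionic eminences and in young striatal neurons.

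The RefSeq promoter windows of 4 pairs found in both lists are shown, because these were the first 4 when pairs were ordered by how near both start sites were to the peak. Each window runs from 250 bases before to 50 bases after the annotated start, in assembly GRCm38.p6, on the strand of the gene named. Capitals mark each GC box (GGGCGG) and each CCAAT box, read on both strands. The Cdca5 window is chr19:6084847-6085146, plus strand; the Poldip2 window is chr11:78512046-78512345, plus strand; the Acadsb window is chr7:131410351-131410650, plus strand; the Ears2 window is chr7:122067037-122067336, minus strand.
Cdca5: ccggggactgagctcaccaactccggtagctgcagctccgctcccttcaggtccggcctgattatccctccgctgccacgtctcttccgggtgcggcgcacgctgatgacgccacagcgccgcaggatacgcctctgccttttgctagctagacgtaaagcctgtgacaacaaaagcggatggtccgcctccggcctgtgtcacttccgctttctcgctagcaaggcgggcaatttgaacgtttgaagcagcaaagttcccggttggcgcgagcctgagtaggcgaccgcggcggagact
Poldip2: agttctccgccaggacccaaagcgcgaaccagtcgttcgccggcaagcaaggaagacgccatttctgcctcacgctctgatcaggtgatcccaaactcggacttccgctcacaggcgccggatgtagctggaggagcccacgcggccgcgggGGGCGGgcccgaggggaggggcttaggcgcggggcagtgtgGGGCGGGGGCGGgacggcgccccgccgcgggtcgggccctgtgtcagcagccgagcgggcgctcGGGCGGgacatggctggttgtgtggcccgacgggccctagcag
Acadsb: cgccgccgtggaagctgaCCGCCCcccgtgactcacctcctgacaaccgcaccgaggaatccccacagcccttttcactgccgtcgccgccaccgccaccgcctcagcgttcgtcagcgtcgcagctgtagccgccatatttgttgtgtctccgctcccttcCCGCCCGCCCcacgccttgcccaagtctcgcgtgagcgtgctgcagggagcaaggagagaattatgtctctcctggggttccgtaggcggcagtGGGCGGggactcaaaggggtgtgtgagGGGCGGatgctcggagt
Ears2: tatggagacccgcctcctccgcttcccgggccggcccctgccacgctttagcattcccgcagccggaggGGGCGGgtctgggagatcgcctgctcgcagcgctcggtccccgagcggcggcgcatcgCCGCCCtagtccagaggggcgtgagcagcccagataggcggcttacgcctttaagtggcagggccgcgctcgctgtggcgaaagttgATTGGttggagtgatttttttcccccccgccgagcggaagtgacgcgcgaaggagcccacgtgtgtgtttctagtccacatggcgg

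The Poldip2 window held 4 GC boxes, the Acadsb window 5, and the Ears2 window 2 with 1 CCAAT box. The Cdca5 window held neither motif, and its 1 match among the letters searched was the ETS core CCGGAAG. RefSeq starts need not be those used in the lists: of 203 opposite-strand separations that both sources gave, 101 (49.8%, 42.9 to 56.6) differed by at most 50 bp. For the 4 pairs shown, RefSeq put the starts 122, 128, 123 and 112 bp apart with no overlap, where the lists gave 40, 21 and 80 bp apart and an overlap of 88 bp. The windows therefore show the promoters of these genes, not the exact place of a peak.

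At these 4 pairs the peak lay within 80 bp of both start sites in both lists. Cdca5, which encodes the cohesion factor sororin, and Zfpl1, a Golgi zinc finger protein, start 40 bp apart in opposite directions. The peak was 35 bp upstream of Cdca5 and 5 bp upstream of Zfpl1 in the E13.5 list, and 40 and 0 bp in the E16.5 list. Poldip2, named for its interaction with a DNA polymerase delta subunit, and Tmem199 start 21 bp apart, with the peak 27 bp inside Poldip2 in the E13.5 list and 26 bp inside it in the E16.5 list. Acadsb, a mitochondrial acyl-CoA dehydrogenase, and Ikzf5, an Ikaros family zinc finger gene, start 80 bp apart. Their E13.5 peak stood almost midway, 39 and 41 bp upstream of the 2 starts, and the E16.5 peak stood 2 bp upstream of Acadsb. Ears2, the mitochondrial glutamyl-tRNA synthetase, and Ubfd1 overlap at their 5′ ends by 88 bp. The peak was downstream of both starts in both lists, at 62 and 26 bp in the E13.5 list and 19 and 69 bp in the later one.

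The other 6 of the 10 nearest pairs also stood on opposite strands. Hadha and Hadhb, which encode the 2 subunits of the mitochondrial trifunctional protein of fatty acid oxidation, start 86 bp apart. The peak was 4 bp inside Hadha in the E13.5 list and between the genes, 63 and 23 bp from the starts, in the E16.5 list. St13, an Hsp70 co-chaperone gene, and Xpnpep3, a mitochondrial aminopeptidase gene, start 95 bp apart, and the peak was between them in both lists, 30 and 18 bp upstream of St13. Aup1, a gene of lipid droplets and protein degradation, and Htra2, a mitochondrial protease gene, start 82 bp apart, with the peak 10 and 17 bp inside Htra2. Ift20, an intraflagellar transport gene, and Tnfaip1 start 90 bp apart. Fam229b and the epsilon tubulin gene Tube1 start 117 bp apart, and AI597479 and the endosomal tethering gene Tgfbrap1 88 bp apart. At Fam229b and AI597479 the peak lay between the starts in both lists, whereas at Ift20 it was between them in the E13.5 list and 6 bp inside Ift20 in the E16.5 list.

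**Figure D1:**
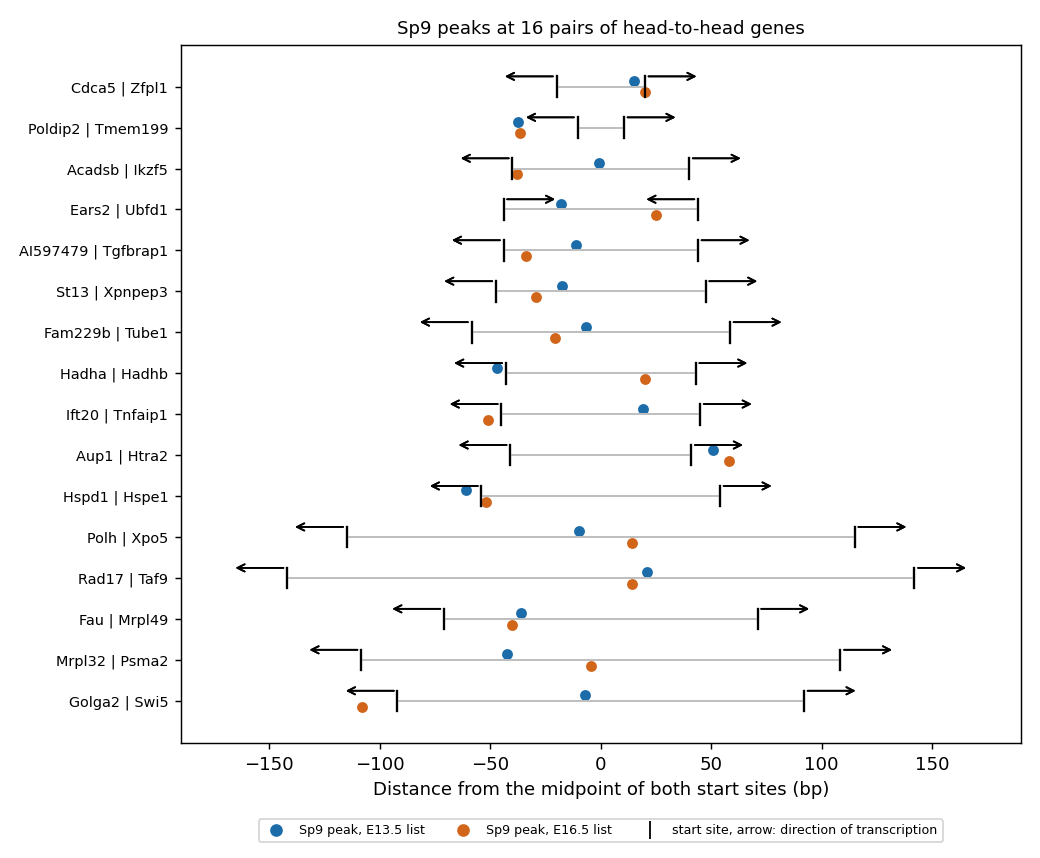
Sp9 peaks (points; blue E13.5 list, orange E16.5 list) at 16 opposite-strand pairs: the 10 nearest pairs of both lists and 6 pairs of the role groups. The x axis is the distance in bp from the midpoint of both starts; vertical ticks are start sites with arrows for the direction of transcription, and the first gene named is transcribed leftwards. At Acadsb and Ikzf5 the E13.5 peak lies at the midpoint and the E16.5 peak at the Acadsb start, and at Ears2 and Ubfd1 the arrows point inwards because the transcripts overlap by 88 bp.

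Most of the shared promoters were head to head. For pairs with more than 1 peak the orientation follows from the distances, since their sum stays fixed for opposite strands and their difference for the same strand. This gave an orientation for 106 of 299 pairs of names, and all 71 of these that also had RefSeq strands had the same orientation there. RefSeq strands alone gave 139 more. Of the 136 peaks with 2 names at E13.5, 124 were at opposite-strand pairs, 2 at same-strand pairs and 10 at pairs of unknown orientation. At E16.5 the 261 such peaks were divided into 214, 3 and 44. The same-strand pairs were Haus3 with Poln, 3110001I22Rik with Bfar, Gm16314 with Gnb1l, and the mitochondrial genes mt-Nd1 with mt-Nd2. They show that 2 close start sites are not always a bidirectional promoter.

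The starts of opposite-strand pairs were mostly close, with a gap under 300 bp at 69 of the 124 peaks (55.6%) in the E13.5 list and 117 of 214 (54.7%) in the E16.5 list. A gap separated them at 103 of 124 peaks (83.1%, 75.5 to 88.6) in the E13.5 list and 172 of 214 (80.4%, 74.5 to 85.1) in the E16.5 list. The median gap was 229 bp (quartiles 122 and 328) in the E13.5 list and 212 bp (99 and 370) in the E16.5 list. At the other peaks, 21 and 42, the transcripts overlapped at their 5′ ends in the lists, by medians of 259 and 252 bp. RefSeq starts put some of these pairs apart, such as Pex13 with Pus10 (-285 bp in the lists, 109 bp in RefSeq). The limit of 1000 bp in the rule bounds these separations.

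Among opposite-strand pairs, the smallest separations were at Mgme1, a mitochondrial exonuclease gene, with the sorting nexin gene Snx5 (6 bp of overlap), at Emc1 with Mrto4 (11 bp apart) and at Orc3, an origin recognition gene, with the mitochondrial arginyl-tRNA synthetase gene Rars2 (13 bp apart). The largest among them were at Cramp1l with the ciliary transport gene Ift140 (1161 bp), Babam1 with Ushbp1 (1054 bp) and 4921522P10Rik with the ephrin ligand gene Efnb2 (1028 bp). Of these 6 pairs, the one at Efnb2 was in both lists, Orc3 was in the E13.5 list and the rest were in the E16.5 list. These separations are those of the lists. RefSeq starts put Mgme1 and Snx5 332 bp apart and Cramp1l and Ift140 856 bp apart. They gave the same separation for Emc1 with Mrto4 (11 bp) and Babam1 with Ushbp1 (1054 bp).

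The distances of these peaks chose them, so they are described only. At opposite-strand pairs, the median distance of the peak from the midpoint of both starts was 73.2 bp (quartiles 30.2 and 179) in the E13.5 list and 72.8 bp (32.5 and 148) in the E16.5 list. Where a gap separated the starts, the peak was inside the gap at 68 of 103 peaks (66.0%) in the E13.5 list and 110 of 172 (64.0%) in the E16.5 list. The nearer start was a median of 77 bp away in the E13.5 list and 73 bp in the E16.5 list, and the farther one 205 and 201 bp. Promoter peaks at a single gene name were a median of 129 and 106 bp from their start. A peak near 2 starts has 2 chances of a short distance, so the shorter median is no sign of tighter placement.

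**Figure D2:**
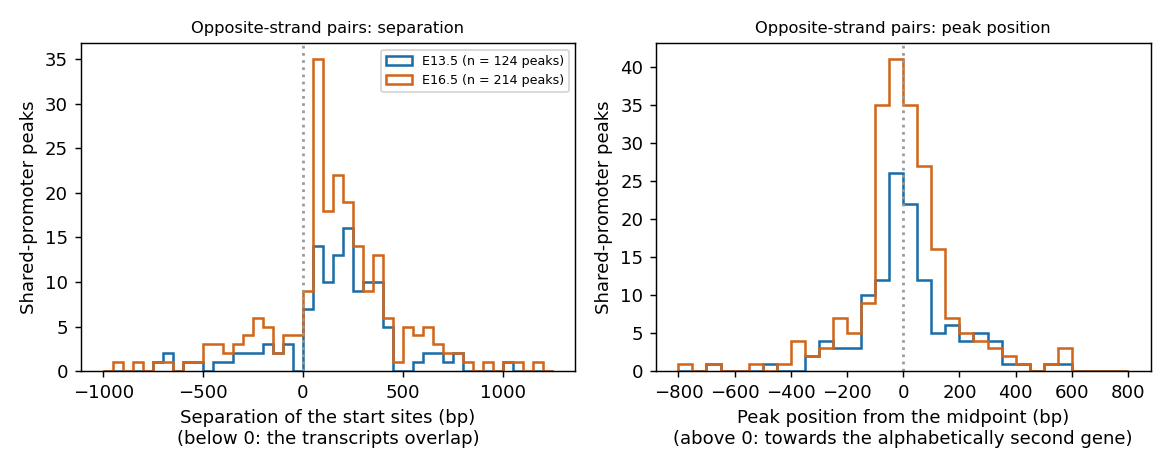
Opposite-strand pairs in the E13.5 list (blue, 124 peaks) and the E16.5 list (orange, 214 peaks), as numbers of shared-promoter peaks in 50 bp bins. The left panel gives the separation of the starts in bp, below 0 where transcripts overlap, and the right panel the signed distance of the peak from their midpoint; medians of the gaps were 229 and 212 bp, and median absolute distances from the midpoint 73.2 and 72.8 bp.

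Shared promoters took the same share of promoter peaks at both stages. They were 138 of 993 promoter peaks (peaks within 1 kb of any start) in the E13.5 list (13.9%, 11.9 to 16.2) and 263 of 1888 in the E16.5 list (13.9%, 12.4 to 15.6). The number of shared-promoter peaks was higher in the E16.5 list as that of all promoter peaks was. By pair, the E13.5 list held 135 pairs or triplets of names and the E16.5 list 260, of which 100 were in both: 74.1% of the first list and 38.5% of the second.

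The other list was read at each peak's own genes, which the rule did not use for that peak. Of the E13.5 members, 92 of 138 (66.7%, 58.4 to 74.0) had an E16.5 peak of the same gene within 200 bp, against 62.9% of all E13.5 promoter peaks. For peaks at a single name the share was 533 of 855 (62.3%), a difference of 4.33 percentage points with an interval of -4.49 to 12.4. Of the E16.5 members, 92 of 263 (35.0%, 29.5 to 40.9) had an E13.5 peak within 200 bp, against 33.3% of all E16.5 promoter peaks. Single-name peaks gave 536 of 1625 (33.0%), 2.0 points lower, with an interval of the difference from -3.98 to 8.35. Both intervals include 0, so a difference in recurrence from other promoter peaks was not detectable with these numbers. For E16.5 peaks whose nearest E13.5 peak was at 1 to 50 kb, members minus single-name peaks gave -4.77 points (-6.82 to -1.68). For a nearest peak farther away it was -3.99 (-6.41 to -0.511), and for no peak 6.48 (-0.0241 to 12.9). For E13.5 peaks the intervals of these classes included 0. No cause of these differences was tested.

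Pairs present at 1 stage had no promoter peak at all at the other. Among the 35 members of pairs in the E13.5 list only, 31 had no E16.5 peak at either gene at any distance, 2 had one between 1 and 50 kb and 2 only farther away. Among the 162 members of pairs in the E16.5 list only, 142 had no E13.5 peak at either gene, 8 had one between 1 and 50 kb and 12 only farther away. In neither set had any a peak within 1 kb of 1 of its genes alone. Taking 3 counts as the upper limit for a count of 0, this allows shares of up to 8.57% and 1.85%. The Wilson intervals end at 9.89% and 2.32%. Starts this close leave little room for a peak near 1 gene and over 1 kb from the other, so the rule itself makes such cases rare. A gene without a listed peak had none past the authors' threshold, and weaker binding there would not be seen.

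**Figure D3:**
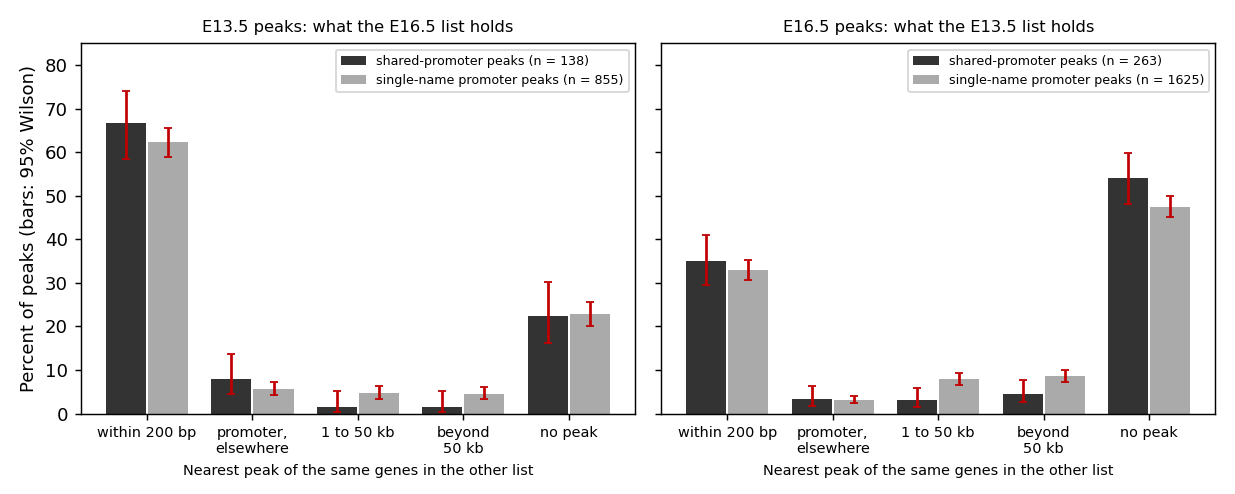
Percent of E13.5 promoter peaks (left) and E16.5 promoter peaks (right) by the nearest peak of the same genes in the other list, for shared-promoter peaks (dark) and single-name promoter peaks (light); red bars are 95% Wilson intervals. The first class, a peak within 200 bp in the other list, held 66.7% of shared-promoter and 62.3% of single-name E13.5 peaks, and 35.0% and 33.0% of E16.5 peaks.

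Where a pair was in both lists, the 2 peaks were close. Their absolute shift had a median of 59 bp (quartiles 25 and 107) over 100 pairs, and 92 of these pairs shifted by at most 200 bp. Over 575 other genes with a promoter peak in both lists and in no shared pair the median was 63 bp. The largest shift was at Dcaf6 and Mpc2, a mitochondrial pyruvate carrier gene, which start 572 bp apart. There the peak was 143 bp inside Mpc2 in the E13.5 list and 63 bp inside Dcaf6 in the E16.5 list, 778 bp away. Zfp143, a zinc finger gene, and AA474408 came next, with the peak 223 bp upstream of Zfp143 in the E13.5 list and 209 bp inside it in the E16.5 list. At Phtf2 and Tmem60, which start 67 bp apart, the peak was 172 bp inside Tmem60 in the E13.5 list and 113 bp inside Phtf2 in the E16.5 list. This last pair was named after its values were seen. Without peak widths, whether such shifts are within the precision of the calls cannot be told.

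Of the long-described divergent pairs listed, 2 were found. Without the number of pairs listed, this gives no share. Hspd1 and Hspe1, the genes of the mitochondrial chaperonins Hsp60 and Hsp10, start 108 bp apart in the lists. The peak was 7 bp inside Hspd1 in the E13.5 list and 2 bp upstream of it in the E16.5 list. From RefSeq starts the separation of this pair was -95 bp, an overlap. Paics and Ppat, enzymes of purine synthesis whose transcripts overlap by 271 bp in the lists, had a peak 135 and 136 bp inside the 2 genes in the E16.5 list, and no peak in the other list.

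Role groups were assigned by gene symbol and are set beside genes with a promoter peak of a single name, with no test. Most counts are small, and whether the shares differ was not tested. Symbols can miss genes of a role and take in others, so each share is that of the symbols matched. Genes of any group, with the SP/KLF family and the listed developmental regulators counted, were 67 of 272 member names (24.6%) in the E13.5 list. In the E16.5 list they were 134 of 522 (25.7%). Among single-name genes they were 212 of 849 (25%) in the E13.5 list and 380 of 1606 (23.7%) in the E16.5 list. The groups were not counted over RefSeq head-to-head genes as a whole. Mitochondrial ribosome, respiratory chain, import and chaperone genes, as matched by symbol, were 11 of 272 member names in the E13.5 list (4.04%). In the E16.5 list they were 18 of 522 (3.45%). Among single-name genes they were 11 of 849 (1.30%) and 29 of 1606 (1.81%). This match leaves out members such as mt-Nd1 and counts carrier genes such as Slc25a32, so these are not the shares of all such genes. Fau, which encodes a ubiquitin-like protein fused to a ribosomal protein, and Mrpl49 start 142 bp apart, with the peak 35 bp upstream of Fau in the E13.5 list and 31 bp in the E16.5 list. Slc25a32, a mitochondrial folate carrier gene, and Dcaf13 start 158 bp apart, and the peak lay between them in both lists. Mrpl32 and the proteasome subunit gene Psma2 start 217 bp apart, with the peak 151 bp upstream of Psma2 in the E13.5 list and 113 bp in the E16.5 list.

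Splicing and RNA processing genes made up 13 member names (4.78%) in the E13.5 list and 25 (4.79%) in the E16.5 list, against 2.12% and 3.11% of single-name genes. Lsm1, a subunit of the mRNA decay ring, and the co-chaperone gene Bag4 start 382 bp apart. Ddx31, an RNA helicase gene, stands beside Gtf3c4, of general factor TFIIIC, 173 bp away, with the peak 33 bp upstream of Gtf3c4 in the E13.5 list and 51 bp in the E16.5 list. Utp18, a ribosome biogenesis gene, and Mbtd1 start 86 bp apart, and the peak was 143 bp inside Mbtd1 in the E13.5 list and 6 bp inside it in the E16.5 list. The count, made by symbol, includes genes with a WD repeat name, which is no proof of a role in RNA. It leaves out members such as Eftud2 and Smg6, so these are not the shares of all such genes.

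DNA replication and repair genes, as matched by symbol, were 6 (2.21%) and 9 (1.72%) of the member names, against 1.18% and 0.872%. The symbols leave out members such as Gen1 and Swi5, so these are not the shares of all such genes. Polh, the translesion polymerase eta, and Xpo5, which exports microRNA precursors, start 230 bp apart with the peak close to midway: 105 and 125 bp from the starts in the E13.5 list, and 129 and 101 bp in the E16.5 list. Rad17, a checkpoint clamp loader gene, and Taf9, a TFIID subunit gene, start 284 bp apart, with the peak 121 bp upstream of Taf9 in the E13.5 list and 128 bp in the E16.5 list. Pole3, a polymerase epsilon subunit gene, shares its promoter with 4933430I17Rik, 301 bp away. In all 3 pairs the peak was between the starts in both lists.

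The other groups had no common direction. Histone, chromatin and general transcription genes, as matched by symbol, were 2.21% and 1.92% of member names against 3.53% and 3.36%. Among them was the RNA polymerase II factor Gtf2e2, whose start lies 100 bp from 1700104B16Rik. Members such as Bap1 and Asf1b were not matched, so these are not the shares of all such genes. Ubiquitin and proteasome genes, with Fam192a counted although it is no subunit, were 3.31% and 3.26% against 4.95% and 4.23%. Here too the symbols missed members, such as Uchl5 and Skp2. Ube3b, a ubiquitin ligase gene, and Kctd10 start 145 bp apart, with the peak 20 and 11 bp upstream of Ube3b. Zinc finger genes of the Zfp and Zbtb type were 1.84% and 1.53% against 1.88% and 2.18%. Trafficking genes were 1.84% against 3.18% in the E13.5 list and 3.45% against 2.55% in the E16.5 list, so their order differed between the lists. Golga2, a Golgi matrix gene, and Swi5, a recombination gene, start 184 bp apart, with the peak between them in the E13.5 list and 16 bp inside Golga2 in the E16.5 list.

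Cell cycle genes, as matched by symbol, were 1.47% and 1.53% against 2.24% and 1.68%. The symbols leave out members such as Cdca5 and Cdca2, so these are not the shares of all cell cycle genes. Cep63, a centrosome gene, and Anapc13, a subunit of the anaphase-promoting complex, start 172 bp apart, with the peak 14 and 41 bp inside Anapc13. Smc6, of the SMC5/6 complex, and the Holliday junction resolvase gene Gen1 start 99 bp apart. Translation genes, as matched by symbol and with Fau not counted, were 1.47% against 1.53% in the E13.5 list and 2.87% against 1.81% in the E16.5 list. Yars, the tyrosyl-tRNA synthetase, and S100pbp start 218 bp apart, and the ribosomal protein gene Rpl35a and Iqcg 263 bp apart, with the peak between them in both lists at both pairs. The cilia group had 4 (1.47%) and 6 (1.15%) member names, against 2 (0.236%) and 4 (0.249%) single-name genes, and the Ttc genes are named for a protein repeat only. Ttll5, a tubulin glutamylase gene, and 0610007P14Rik start 188 bp apart, and the peak was 147 and 309 bp inside Ttll5.

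Regulators of ganglionic eminence, striatal, interneuron and cortical development were not found at the shared promoters. None of the listed regulators was among the 272 or 522 member names, which allows shares of up to 1.10% and 0.575%, whereas 17 of 849 (2.0%) and 21 of 1606 (1.31%) single-name genes were. The SP/KLF family likewise had 0 member names, against 7 and 9 single-name genes. These lists were chosen with earlier results of the same data known. A gene can be a member only if another gene starts nearby, and how many of the listed genes have such a neighbour was not counted. The absence therefore cannot be told apart from the layout of these genes.

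A smaller share of shared-promoter genes had further peaks. Beyond the promoter and up to 50 kb, 7 of 272 member names (2.57%, 1.25 to 5.22) had another peak in the E13.5 list and 24 of 522 (4.60%, 3.11 to 6.75) in the E16.5 list. For single-name promoter genes these were 127 of 849 (15%, 12.7 to 17.5) and 220 of 1606 (13.7%, 12.1 to 15.5). Beyond its basal part, a domain in the lists extends only as far as the basal domain of the next gene, which for paired genes is close on one side. Some member genes still had peaks far upstream, such as Tox4 at a signed distance of -21247 bp and Anapc16 at -43831 bp in the E16.5 list. In the lists the 5′ ends of these 2 genes overlap those of their partners. Both genes were named after their values were seen. Counting downstream peaks alone, the shares were 1.84% against 9.89% in the E13.5 list and 3.07% against 7.22% in the E16.5 list. How far the limits of the domains account for this was not tested.

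Mvk is one of the few with further peaks. It encodes mevalonate kinase of sterol synthesis and shares its promoter with Mmab, 221 bp away. Besides the peak between the 2 starts it had peaks at 23391 and 31119 bp in the E13.5 list and 23303 and 31045 bp downstream in the later one. Gtf3c4 had one 42548 bp downstream in the E13.5 list and 42414 bp in the E16.5 list, and Phtf2 one at 38044 and 38086 bp. At Marcks, an actin-regulating protein kinase C substrate gene, peaks 2165 bp upstream and 1683 bp downstream accompanied the shared promoter peak at E16.5. Mvk, Phtf2 and Marcks were named after their values were seen.

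To see how often head-to-head promoters carried a peak, pairs were also taken from RefSeq alone, without use of the peaks. In the promoter table, 748 pairs of protein-coding genes (1483 genes) stand on opposite strands with starts up to 1000 bp apart, transcribed away from each other. Of these pairs, 110 (14.7%, 12.3 to 17.4) had a promoter peak at either gene in the E13.5 list and 198 (26.5%, 23.4 to 29.7) in the E16.5 list. By gene, 12.9% (11.3 to 14.7) had one at E13.5, against 5.05% of all 17492 protein-coding genes of the table and 4.33% (4.02 to 4.66) of those outside such pairs. At E16.5 the shares were 23.3% (21.2 to 25.5), 9.58% and 8.31% (7.89 to 8.75). Genes of 1 pair share a peak, so they are not independent. A peak near either start can count for both genes, a chance that genes outside such pairs mostly lack, so the shares by gene are not like for like.

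CpG content moved with this difference. The median ratio of observed to expected CpG was 0.851 in the windows of head-to-head genes and 0.576 over all protein-coding genes. Among windows with a ratio of at least 0.6, 180 of 1288 head-to-head genes (14.0%, 12.2 to 16) and 607 of 7165 other genes (8.47%, 7.85 to 9.14) had a promoter peak at E13.5. At E16.5 these were 25.3% (23.0 to 27.8) and 16.6% (15.7 to 17.4). The shares of head-to-head genes were higher in both lists, by a smaller ratio than over all genes. The parts of CpG content, and of peaks counted for both genes of a pair, in the difference were not tested.

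**Figure D4:**
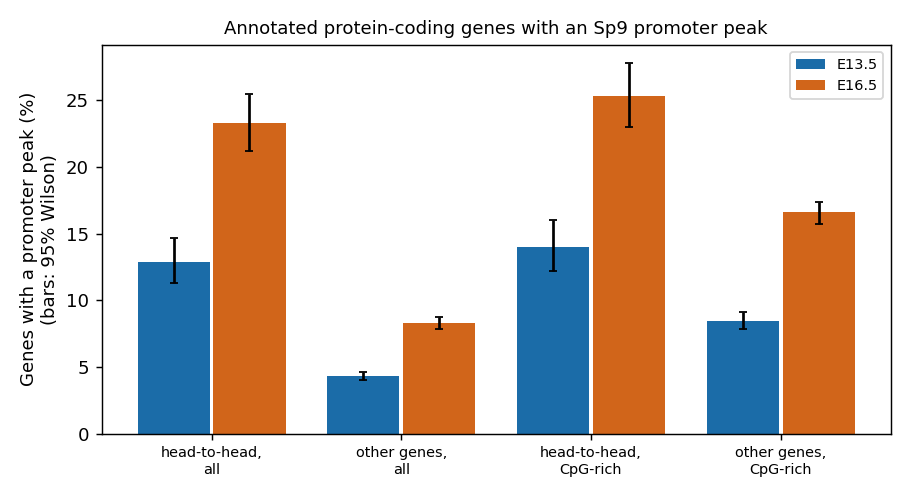
Percent of annotated protein-coding genes with an Sp9 promoter peak (y axis) in the E13.5 list (blue) and the E16.5 list (orange), for genes of head-to-head pairs and other genes, over all windows and over CpG-rich windows; bars are 95% Wilson intervals. Over all genes the shares were 12.9% against 4.33% in the E13.5 list and 23.3% against 8.31% in the E16.5 list, and in CpG-rich windows 14.0% against 8.47% and 25.3% against 16.6%. A peak can count for both genes of a head-to-head pair.

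GC boxes were common in the promoter windows of shared-promoter genes, at a share below that of other genes with a promoter peak and above that of all genes. In all, 8 motifs were searched by their letters on both strands; none contains another, and matches of different motifs may overlap. The GC box was GGGCGG. Of 213 protein-coding member genes with a window at E13.5, 161 (75.6%, 69.4 to 80.9) held a GC box, against 544 of 671 (81.1%, 77.9 to 83.9) single-name genes and 46.3% of all 17492. At E16.5 these were 304 of 408 (74.5%, 70.1 to 78.5) and 1025 of 1267 (80.9%, 78.6 to 83.0). The E13.5 intervals of members and single-name genes overlap. The TATA box, as TATAAA, was in 5.63% and 3.68% of member windows, 4.62% and 5.13% of single-name windows and 13.3% of all. Over RefSeq head-to-head genes as a whole, with or without a peak, it was in 4.99%, and the GC box in 66.9%. The low TATA share was thus not particular to members.

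The ETS core CCGGAAG, bound by factors such as Gabpa, was in 50 of 213 member windows (23.5%, 18.3 to 29.6) in the E13.5 list and 97 of 408 (23.8%, 19.9 to 28.1) in the E16.5 list. It was in 15.4% (12.8 to 18.3) and 18.7% (16.7 to 20.9) of single-name windows, with overlapping intervals for the E16.5 list, and in 11.9% of all. The YY1 letters AAGATGGC were in 10.3% (6.92 to 15.1) and 9.07% (6.65 to 12.2) of member windows, against 5.07% (3.65 to 7) and 5.29% (4.19 to 6.66) of single-name windows and 3.22% of all; the intervals overlap narrowly in both lists. Over RefSeq head-to-head genes as a whole, with or without a peak, the ETS core was in 28.5% and the YY1 letters in 8.02%. The CRE (CREB/ATF) letters TGACGTCA were in 5.63% and 4.41% of member windows, 2.83% and 2.92% of single-name windows and 2.34% of all. Member and single-name intervals for the CRE overlap in both lists, and over RefSeq head-to-head genes its share was 4.11%. The E-box CACGTG was in 9.86% and 10.3% of member windows, 11.8% and 11.0% of single-name windows and 7.90% of all. The CCAAT box, searched as CCAAT, was in 38.5% and 40.0% of member windows, 39.0% and 36.3% of single-name windows and 39.0% of all. Homeodomain letters TAATTA were in 0.939% and 0.980% of member windows, 1.79% and 1.5% of single-name windows, with overlapping intervals, and 4.68% of all. Over RefSeq head-to-head genes the E-box was in 10.8%, the CCAAT box in 43.2% and the homeodomain letters in 1.96%. Windows of paired genes overlap, so 1 match can count for both genes.

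**Figure D5:**
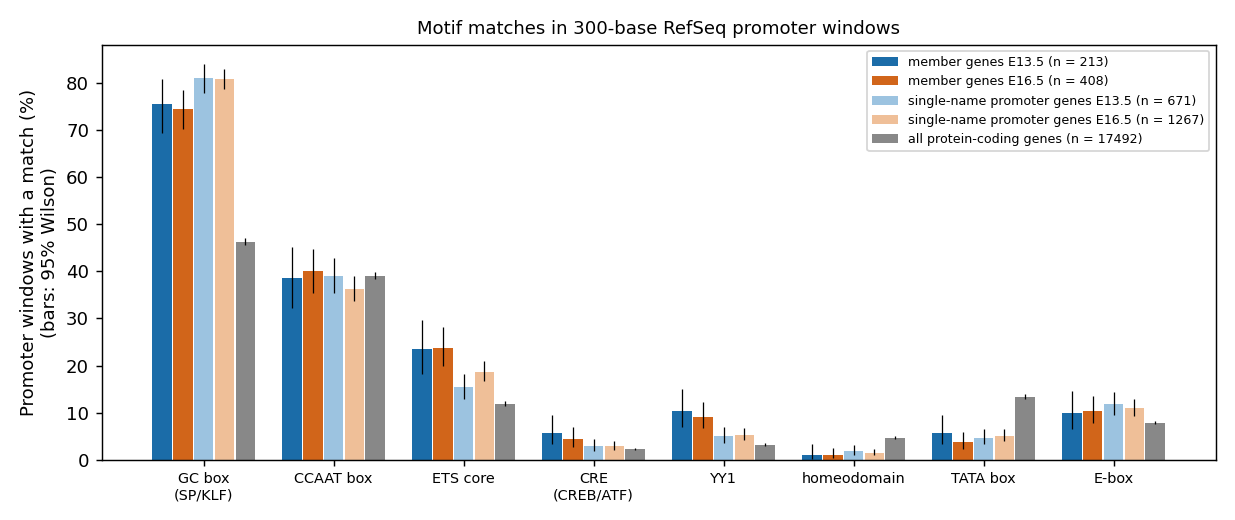
Percent of RefSeq promoter windows (300 bases, y axis) holding each of 8 motifs (x axis), for member genes and single-name promoter genes at E13.5 and E16.5 and for all protein-coding genes; bars are 95% Wilson intervals. The GC box was in 75.6% and 74.5% of member windows and 46.3% of all, and the ETS core in 23.5% and 23.8% against 11.9%.

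Not all members are paired nuclear promoters. In each list 2 peaks carried 3 names: Atf5 with Il4i1 and Nup62, and Bysl with Gm20517 and Med20. Il4i1 with Nup62, a nuclear pore gene, and Gm20517 with Med20, a Mediator subunit gene, are same-strand pairs, so part of what joins these names is 2 neighbouring starts in 1 direction. Each list also held 2 mitochondrial peaks. Both were divided into several entries, 8 each in the E13.5 list and 6 and 7 in the E16.5 list, and the nearest distances are given. One peak lay 506 bp inside mt-Nd1 and 657 bp upstream of mt-Nd2 in the E13.5 list, and 531 bp inside and 632 bp upstream in the later one. The other lay 525 bp inside mt-Nd6 in the E13.5 list and 534 bp in the E16.5 list. Mitochondrial genes are transcribed as long shared transcripts, so these distances do not describe paired promoters. At least 2 of the names were protein-coding at 117 of 138 members in the E13.5 list and 227 of 263 in the E16.5 list.

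The members closest to the limit of the rule were, at E13.5, Cdca2 with Kctd9 at 895 bp from the farther start, 2310047M10Rik with 9330160F10Rik at 869 bp, and the Dcaf6 pair at 715 bp. Just outside were Btf3l4 with Txndc12 at 1050 bp, Shoc2 with Bbip1 at 1069 bp and Iscu with Sart3 at 1107 bp. At E16.5 the closest inside were Ap4s1 with Strn3 at 991 bp, the 2310047M10Rik pair at 920 bp and Babam1 with Ushbp1 at 886 bp. Just outside were Shoc2 with Bbip1 at 1004 bp, Nacc1 with Trmt1 at 1022 bp and Sart3 with Iscu at 1024 bp. Shoc2 with Bbip1, and Iscu with Sart3, thus fell just outside in both lists.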

How the data were processed

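The lists of 2 Sp9 ChIP libraries were analysed. Input libraries have a role here only as the background of the peak calls, which the file names record. For tools and build, the submitters' processing notes list BWA 0.6.2 and MACS2 2.1.0 besides CASAVA 1.8.2, bcl2fastq 1.8.4 and mm9, and assign no roles; the sources used here do not give a threshold for peaks. Per the file headers, the deposited entries pair each gene with numbered peaks and signed TSS distances in bp, with no other measured value. Domains ran 5000 bp upstream and 1000 bp downstream of a TSS, extended up to 1000000 bp.

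Lettered entries of a number were counted as 1 peak, and each gene name kept its nearest distance over all those entries and its starts. Members divided into lettered entries were 3 in the E13.5 list and 11 in the E16.5 list. Of 272 and 522 member names, 258 and 500 matched the gene table (GRCm38.p6; 14 and 27 by synonym); 2 in each list have the form of a date. Orientation was called where sums or differences of distances stayed within 1 bp, otherwise from RefSeq strands. The call from distances was run on simulated noise-free pairs, which checks the code only and not the orientations from RefSeq. Shares carry 95% Wilson intervals, differences Newcombe intervals. The shares allowed by a count of 0 are instead 3 divided by the number of peaks or names counted.

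The members and lists were chosen with earlier results of these data known. Named pairs were the 10 nearest in both lists, those of the known, SP/KLF and neural lists, those with 3 names, separation extremes, pairs at the limit, and up to 3 per role group, not all described; others are marked. Alternatives tried were limits of 500 and 2000 bp, protein-coding names only, matching within 100 and 500 bp or at every gene, and, added after seeing the data, leaving out mitochondrial peaks, downstream peaks alone and CpG-rich windows. The software was matplotlib 3.10.9, numpy 2.4.6 and scipy 1.17.1 under Python 3.11.15.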

Additional observations from a re-analysis of the deposited data

How the results depend on the processing

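The number of shared-promoter peaks stayed within 1.5 times of 138 and 263 under limits of 500 bp (123 and 228) and 2000 bp (159 and 291), with protein-coding names only (117 and 227) and without the mitochondrial peaks (136 and 261). With protein-coding names only, the share of promoter peaks that were shared was 12.1% in the E13.5 list and 12.2% in the E16.5 list, the second below the 95% interval of 13.9%, since fewer names can form pairs. Recurrence was 50% for the earlier list and 26.2% for the later one when peaks had to match within 100 bp, which follows from the stricter match. Within 500 bp it was 73.9% and 37.6%, and a match at every gene left it at 66.7% and 35.0%. No paired analysis was possible because each stage has 1 ChIP library and no replicate. Depth and peak strength are unknown, so the lists' thresholds limit every count.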
